A study of Mus musculus with 24 samples.

Results

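The genes of interleukin-6 family reception and JAK-STAT signalling were measured by RNA-seq in muscle stem cells, the resident progenitors of mouse skeletal muscle, before and after muscle injury. The set was chosen by name and holds 10 of the 17111 genes in the table: the receptor genes Il6ra, Il6st, Osmr and Lifr, the kinase genes Jak1 and Jak2, the transcription factor gene Stat3, and the inhibitor genes Socs1, Socs2 and Socs3. All 10 passed the filter on low values and were among the 16985 genes tested. The study compared L2A-WT mice with L2A-Pax7CreER mice, in which a Cre recombinase under the Pax7 gene, active in muscle stem cells, is directed at Lamp2a, the lysosomal receptor of chaperone-mediated autophagy. Cells were primary muscle stem cells from uninjured muscle (day 0) or from muscle taken 1 or 4 days after an intramuscular injection of 50 uL of 10 uM cardiotoxin, a snake venom toxin that destroys myofibres and sets off regeneration. Each of the 6 groups of genotype and day had 4 libraries, 24 in all, and all carried the same batch label. WT and KO below stand for these genotypes. Pax7CreER is named only in the KO labels, so the presence of Cre and the loss of Lamp2a cannot be told apart, and the labels used here give no age. The labels do not state whether the 4 libraries of each group are 4 animals, and p-values therefore cover the spread between libraries, which may be technical.

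Interleukin-6, leukaemia inhibitory factor and oncostatin M bind private receptor chains (encoded by Il6ra, Lifr and Osmr) that pair with the shared signalling chain gp130, encoded by Il6st. The kinases JAK1 and JAK2, held on the inner side of these chains, phosphorylate STAT3, which enters the nucleus and activates genes that include Socs3. SOCS3 binds gp130 and the JAKs and stops the signal, SOCS1 inhibits JAKs directly, and SOCS2 is best known as a brake on growth hormone signalling. In muscle stem cells, oncostatin M has been tied to quiescence, and interleukin-6 with STAT3 to activation and differentiation.

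Socs3 was the member whose response to injury differed most between the genotypes, so its promoter is shown. The window covers the 250 bases before the gene's start in RefSeq (GRCm38.p6, minus strand, chr11:117969367-117969616), and capitals mark the match to the palindromic STAT motif TTC, any 3 bases, GAA.

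Socs3 promoter: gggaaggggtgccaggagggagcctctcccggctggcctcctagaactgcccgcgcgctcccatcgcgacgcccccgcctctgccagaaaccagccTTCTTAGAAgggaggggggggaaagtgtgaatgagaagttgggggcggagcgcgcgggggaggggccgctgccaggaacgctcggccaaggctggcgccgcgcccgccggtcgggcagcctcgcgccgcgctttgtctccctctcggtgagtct

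This match begins 154 bases before the start, and 1 match was found in the window. Because the motif is its own reverse complement, a match on one strand is a match on the other, and it was searched with no other motif. Among the same windows of 32851 promoters, 2306 (7.02%) held at least 1 match, and of the 10 windows found for 9 members only that of Socs3 did. RefSeq's start for Socs3 may not be the only one in use: the gene model of GENCODE M21 on the same build starts 681 bases further upstream. A match of letters does not show that a STAT protein binds there.

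Library depth was between 11.58 and 22.47 M reads assigned to genes. Values are normalised read counts as deposited, and log2 fold changes are on the scale of log2(value + 1), which understates the change of genes near 0. Lamp2 did not pass the test between genotypes at day 0 (log2 difference -0.19 ± 0.16 (SE), limma adjusted p = 0.523), day 1 (-0.10, limma adjusted p = 0.887) or day 4 (0.06, limma adjusted p = 0.981). That gene-level value also counts the other splice forms of Lamp2 and cannot show the loss of Lamp2a. All 11 muscle stem cell markers looked for, Pax7, Myf5 and Myod1 among them, were present, with summed values of 2712 to 3609.7 in the WT day 0 libraries and 3154 to 3557 in those of KO. These are bulk libraries, in which fewer cells of a type and less RNA per cell cannot be told apart.

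Most of the pathway was at its highest in the libraries of uninjured muscle and fell after injury in both genotypes. Per kilobase of merged exons (GENCODE M21), the WT day 0 level was 93.2 for Stat3, 42.4 for Jak1, 27.3 for Socs2, 15.8 for Jak2, 14.5 for Il6st, 14.4 for Osmr, 5.91 for Socs3, 4.88 for Lifr, 1.9 for Socs1 and 0.111 for Il6ra. At day 1 in WT the 3 highest levels per kilobase were those of Socs3 (29.6 ± 13.5, SD, n = 4), Stat3 (28.4 ± 8.25) and Jak1 (25.6 ± 3.83), which did not differ beyond their spread, and the Socs3 mean was raised by WT day 1 replicate 3. The plot of member values by library shows a fall at both steps for Osmr and Stat3 in both genotypes and for Jak1 in WT. Socs2 in both genotypes and Jak2 in WT fell and then partly returned. Socs3 had a transient peak in WT, and Il6ra rose late. The second step of the fall was lost under quantile normalization for Stat3, and for Jak1 it turned sign there.

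**Figure D1:**
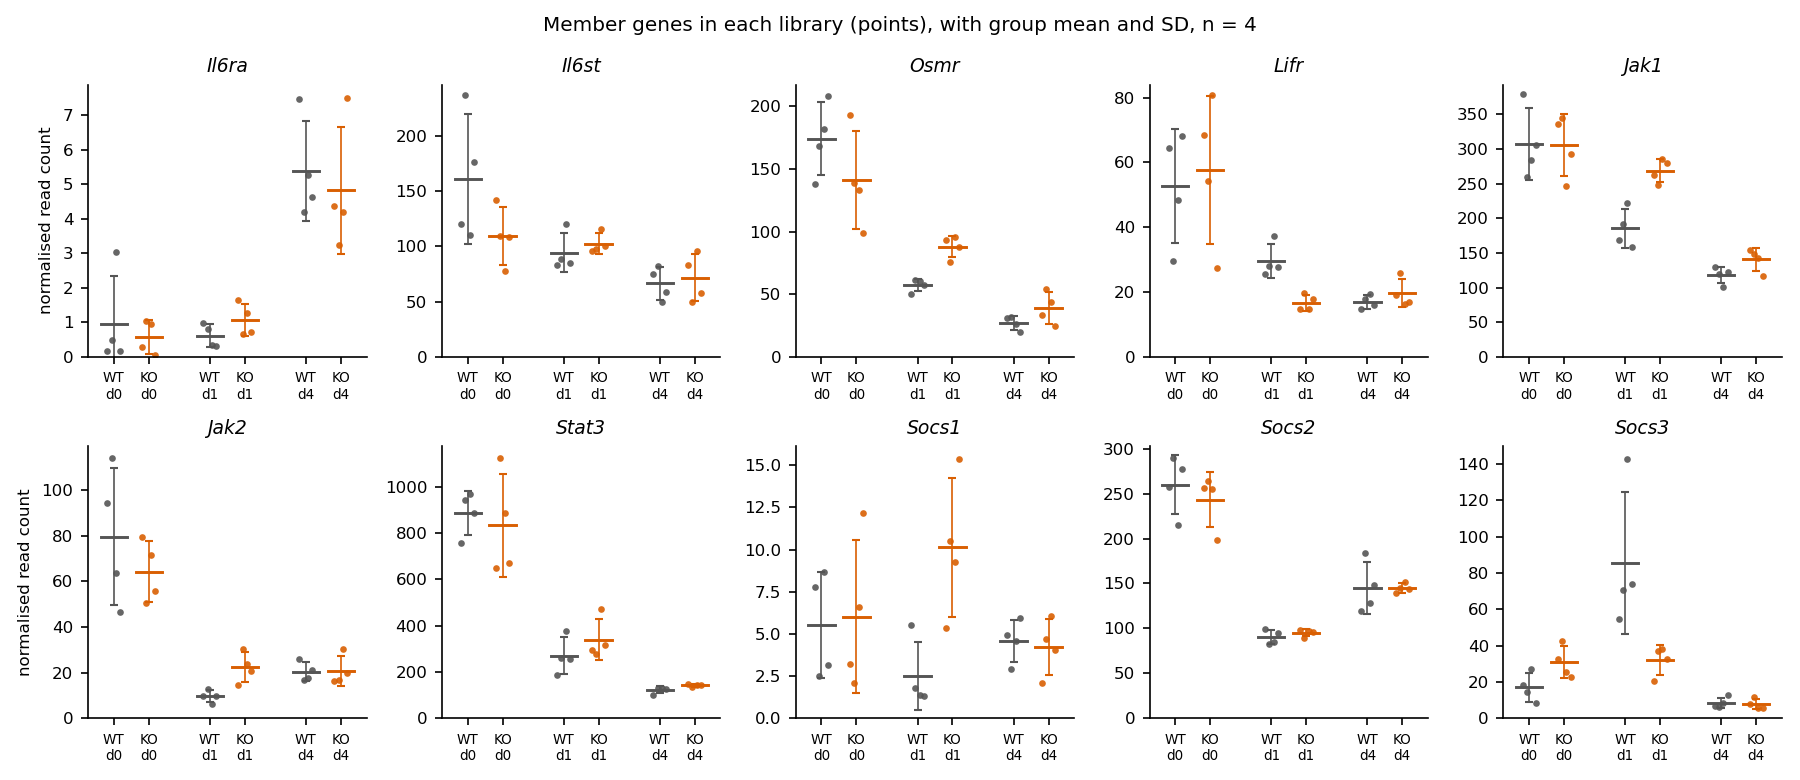
Normalised read count (linear scale, from 0) of each of the 10 genes in the 24 libraries, WT in grey and KO in orange, at days 0 (d0), 1 (d1) and 4 (d4). Points are libraries and bars are group means with the SD of 4 libraries. Socs3 peaks in WT at day 1 (mean 85.5) and not in KO (32.0). Il6ra is above 3 in every day 4 library and in WT day 0 replicate 3 (3.04).

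Between days 0 and 1, 8 of the 10 genes passed the test in WT, 7 of them lower and Socs3 higher, where 52.6% of all genes tested passed in either direction 24.9% as lower and 27.7% as higher. In KO 5 passed, all lower, against 45.6% of all genes in either direction and 21.5% as lower. At day 4 against day 0, 9 genes passed in each genotype, 8 lower (of which Socs2 turned sign under quantile normalization) and Il6ra higher, against backgrounds of 44.6% in WT and 40.5% in KO (18.9% and 18.2% as lower). The median log2 change of the members at day 4 against day 0 was -1.29 in WT and -1.27 in KO, where that of all genes tested was 0.23 and 0.18. Between days 1 and 4, 8 genes passed in WT and 6 in KO, against 50.4% and 49.6% of all genes. Of the 11 muscle stem cell markers, 8 were lower at day 4 than at day 0 in each genotype and 2 higher, with median log2 changes of -1.82 in WT and -1.23 in KO. At day 1 against day 0 most of them went the other way. In WT 6 were higher and 2 lower (median 0.96), and in KO 6 were higher and 3 lower (median 0.6). Their summed values were 4761 to 6906 in WT and 5645 to 7552 in KO at day 1, and 1225 to 1426 and 1262 to 1417 at day 4. Endothelial markers fell as well: the sum over 10 of them was 152 to 374 in WT and 106 to 219.5 in KO at day 0. At day 1 it was 27.2 to 43.6 and 22.3 to 29.3. Of these markers 5 were lower and 0 higher at day 1 in WT, and 4 lower and 1 higher in KO. At day 4 against day 0, 2 of the 10 were lower and 0 higher in each genotype, near the share of all genes that fell. Their median log2 changes were then -0.92 in WT and -0.26 in KO, and their sums 19.8 to 33.4 and 21.5 to 55.4. The part of the stem cell and endothelial markers in the fall of the members was not tested. The libraries of the days compared did not overlap for 6 (day 1 against 0), 8 (day 4 against 0) and 9 (day 4 against 1) of the 10 genes in WT, where they did not for 49.5%, 39.0% and 62.4% of all genes. In KO these numbers were 5, 8 and 6, against 40.2%, 28.9% and 50.1%.

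**Figure D2:**
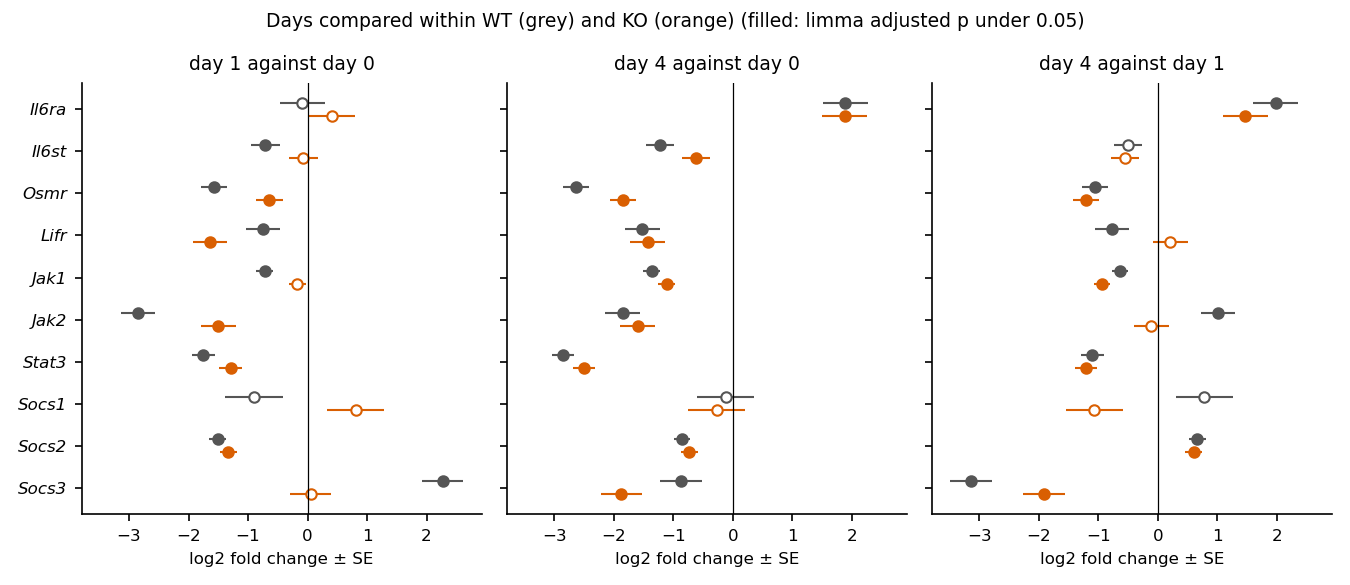
Log2 fold change with its SE (horizontal axis) for each gene between days, in WT (grey) and KO (orange), from 1 limma model over 24 libraries; filled points passed an adjusted p of 0.05. At day 4 against day 0 all called points but those of Il6ra lie below 0 (those of Socs2 turned to 0.09 and 0.06 under quantile normalization), and at day 1 Socs3 is far above 0 in WT (2.27) and near 0 in KO (0.05).

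Of the receptors, Osmr, the oncostatin M chain, gave the clearest fall. Its WT values were 138, 168, 182 and 208 at day 0, 50.3, 57.5, 60.2 and 61.1 at day 1, and 19.5, 26.6, 31.2 and 31.8 at day 4. In KO they were 98.6, 133, 139 and 193, then 75.8, 88.0, 93.0 and 95.3, then 24.5, 33.2, 43.9 and 54.4. Within each genotype the 3 days did not overlap. The log2 change from day 0 to day 1 was -1.57 ± 0.22 in WT (limma adjusted p = 2.59e-06) and -0.64 ± 0.22 in KO (limma adjusted p = 0.0224). The KO call was lost without KO day 0 replicate 1 (limma adjusted p = 0.0983) or KO day 1 replicate 2 (0.0673). From day 0 to day 4 the log2 change was -2.64 ± 0.22 in WT and -1.85 ± 0.22 in KO.

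Lifr, the chain for leukaemia inhibitory factor, was lower after injury too, with the genotypes apart at day 1. WT libraries held 29.5 to 68.0 at day 0, with a median of 56.4, and 25.6, 27.6, 28.0 and 37.4 at day 1. KO libraries held 27.5 to 80.7 at day 0, with a median of 61.4, and 14.6, 14.7, 17.7 and 19.7 at day 1. Every KO library at day 1 was thus under every WT library of that day, and by day 4 both genotypes lay between 14.7 and 26.0. The log2 change from day 0 to day 1 was -1.64 ± 0.29 in KO (limma adjusted p = 5.77e-05) and -0.75 ± 0.29 in WT (limma adjusted p = 0.033). The WT call was lost in 6 of 35 alternatives, 5 of which left out a library: WT day 0 replicate 1 (limma adjusted p = 0.0981) or 4 (0.108), or WT day 1 replicate 1 (0.0803), 2 (0.0666) or 4 (0.0678). From day 0 to day 4 the change was -1.52 ± 0.29 in WT and -1.43 ± 0.29 in KO. Between days 1 and 4 Lifr changed by -0.77 ± 0.29 in WT (limma adjusted p = 0.0314; lost without WT day 1 replicate 3, 0.0965, or WT day 4 replicate 1, 0.0765, or 4, 0.0624) and by 0.21 ± 0.29 in KO (limma adjusted p = 0.568).

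Il6st, which encodes the shared gp130 chain, varied most within the uninjured WT group. Its 4 WT values at day 0 were 109.9, 120.4, 176 and 237, and its mean fell from 161 ± 58.5 (SD, n = 4) at day 0 to 94.1 ± 17.5 at day 1 and 66.6 ± 15 at day 4. In KO the means were 109 ± 26.3, 102 ± 9.52 and 71.5 ± 21.5. Every pair of neighbouring groups in the order of the means overlapped. The WT change at day 1, -0.71 ± 0.24, passed the test (limma adjusted p = 0.0159) but not without WT day 0 replicate 2 (0.0843). The KO change at day 4, -0.62 ± 0.24, was close to the threshold (limma adjusted p = 0.0429) and was lost in 12 of 35 alternatives, 5 of which left out 1 library: KO day 0 replicate 1 (limma adjusted p = 0.137), 2 (0.0707) or 4 (0.0695), or KO day 4 replicate 2 (0.154) or 4 (0.115). In WT the day 4 change was -1.22 ± 0.24 (limma adjusted p = 0.000249), and it missed the threshold under quantile normalization (-0.58, limma adjusted p = 0.0538).

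Il6ra, the ligand-binding chain for interleukin-6, was barely detected before day 4. In WT its values were 0.166, 0.172, 0.474 and 3.04 at day 0, from 2 to 39 reads a library, and 0.32 to 0.976 at day 1. KO libraries held 0 to 17 reads at day 0 and 0.648 to 1.64 at day 1. The KO library with 0 reads allows a value of up to 0.3197, the level that 3 reads would give, for counting error only. At day 4 the values were 4.19, 4.63, 5.26 and 7.48 in WT and 3.25, 4.2, 4.36 and 7.5 in KO, above every earlier library. The log2 change from day 0 to day 4 was 1.89 ± 0.38 in WT (limma adjusted p = 0.000267) and 1.88 ± 0.38 in KO (limma adjusted p = 0.000319). In edgeR the WT rise had an adjusted p of 0.0517.

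This rise came with a rise of macrophage and monocyte markers, cells in which Il6ra is known to be active. All 20 markers looked for (Cd68, Csf1r and C1qa among them) rose by day 4 in WT and 18 of 20 in KO, where 4370 and 3794 of all 16985 genes tested did. The median log2 changes of the markers were 4.84 and 4.3. Their summed values went from 18.7 to 114 in WT and 25.6 to 56.7 in KO at day 0 to 1639 to 2169 and 1407 to 1564 at day 4. In the WT day 0 libraries 13 of the 20 markers, C1qa, Adgre1 and Ptprc among them, had at most 3 reads in every library, and at day 4 none did. Within WT day 0, replicate 3 had the highest Il6ra value (3.04) and the lowest marker sum (18.7). Replicate 4 of that group had the highest sum (114) and an Il6ra value of 0.166. Markers of other cells rose by day 4 too. Of 14 mature myofibre markers 8 were higher in WT and 9 in KO, with 0 lower, and of 4 neutrophil markers 2 were higher in each genotype. Of 14 fibro-adipogenic progenitor markers 6 were higher and 3 lower in WT, and 4 higher and 4 lower in KO. The part of macrophages or of any of these other cells in the Il6ra values was not tested.

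**Figure D3:**
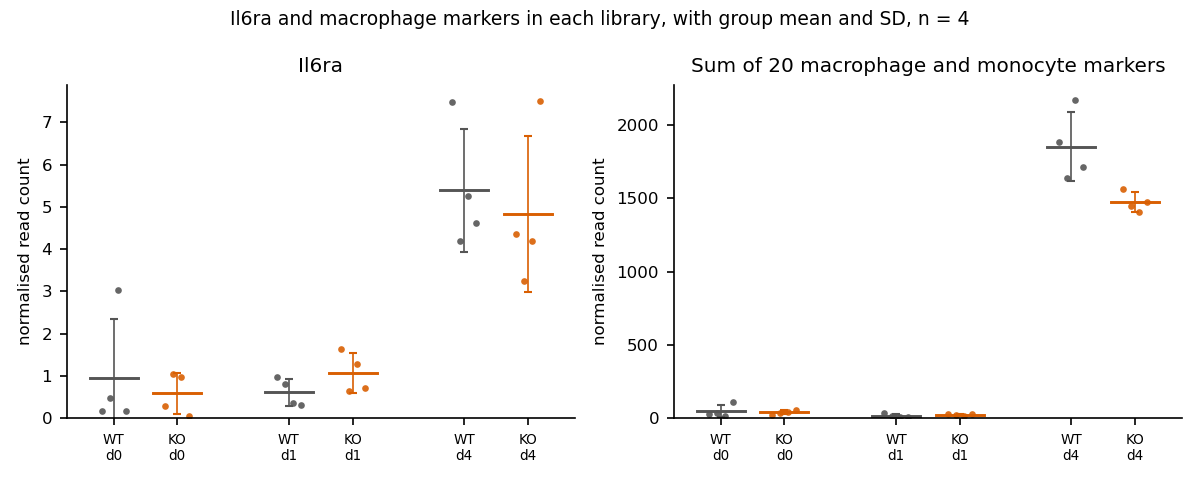
Normalised read count (linear scale, from 0) of Il6ra and the sum over 20 macrophage and monocyte markers in the 24 libraries, WT in grey and KO in orange, with group means and SD (n = 4). The marker sum stays low at days 0 and 1 and is high in all 8 libraries of day 4. Il6ra is highest in those 8 libraries too, but WT day 0 replicate 3 (3.04) comes close to the lowest of them (3.25).

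The kinase gene Jak2 fell steeply on injury, and further in WT than in KO. Its WT values were 46.8, 63.6, 94.3 and 114 at day 0, 6.45, 9.74, 10.0 and 13 at day 1, and 16.9, 17.8, 21.2 and 25.9 at day 4. KO values were 50.5, 55.6, 71.7 and 79.3 at day 0, 14.5, 20.9, 24 and 30.6 at day 1, and between 16.2 and 30.4 at day 4, with a median of 18.3. The WT libraries of day 1 were thus under all others, and the KO level of day 1 overlapped that of day 4. From day 0 to day 1 the log2 change was -2.85 ± 0.29 in WT (limma adjusted p = 1.85e-08) and -1.50 ± 0.29 in KO (limma adjusted p = 0.000187). Only WT then rose between days 1 and 4 past the threshold, by 1.01 ± 0.29 (limma adjusted p = 0.00626), where KO changed by -0.11 ± 0.29 (limma adjusted p = 0.785). That later difference between the genotypes, -1.11 ± 0.41, was not past the threshold (limma adjusted p = 0.171).

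Jak1 was lower at day 1 than at day 0 in WT and lower by day 4 in both genotypes. WT values were 259, 284, 305 and 379 at day 0, 159, 169, 191 and 222 at day 1, and 101, 120.1, 122 and 129 at day 4. KO values were 247, 293, 336 and 345, then 248, 263, 279 and 285, then 117, 143, 148 and 154. At day 1 the KO libraries were still within the KO range of day 0, and the WT libraries were under theirs. The change at day 1 was -0.72 ± 0.14 in WT (limma adjusted p = 0.000152) and -0.17 ± 0.14 in KO (limma adjusted p = 0.343), but the test of the difference, 0.55 ± 0.20, missed the threshold (limma adjusted p = 0.0803). From day 0 to day 4 it was -1.36 ± 0.14 in WT and -1.11 ± 0.14 in KO. The KO change at day 4 was not called after quantile normalization (-0.27, limma adjusted p = 0.143), under which the KO change at day 1 was (-0.48, limma adjusted p = 0.00835).

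Stat3 had the largest fall of the members by day 4, to 0.139 of its day 0 level in WT and 0.177 in KO on the fitted scale. WT values were 755, 887, 940.3 and 969.8 at day 0, 186, 257, 262 and 376 at day 1, and 101, 127, 131 and 132 at day 4. In KO they were 649.8, 672, 886 and 1124, then 279.6, 293, 317 and 469.6, then 133, 143, 145 and 149.6. The 3 days did not overlap in either genotype, while the genotypes overlapped at days 0 and 1. The log2 change from day 0 to day 1 was -1.75 ± 0.19 in WT and -1.29 ± 0.19 in KO (limma adjusted p = 4.52e-08 and 5.76e-06), and from day 0 to day 4 it was -2.85 ± 0.19 and -2.50 ± 0.19.

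Socs3, the feedback inhibitor that STAT3 is known to activate, rose on injury in WT, and its level in KO stayed near that of day 0. Its WT values were 8.34, 14.6, 18.1 and 27.4 at day 0, 54.9, 70.6, 73.8 and 143 at day 1, and 6.05, 6.79, 8.42 and 12.6 at day 4. KO values were 23, 25.4, 32.7 and 42.8 at day 0, 20.3, 32.4, 37.0 and 38.4 at day 1, and 5.74, 5.77, 7.89 and 12 at day 4. The 4 WT libraries of day 1 stood above the other 20 libraries, and the KO libraries of days 0 and 1 overlapped. From day 0 to day 1 the log2 change was 2.27 ± 0.35 in WT (4.83-fold, limma adjusted p = 7.76e-06) and 0.05 ± 0.35 in KO (1.03-fold, limma adjusted p = 0.937). Between days 1 and 4 Socs3 fell in both genotypes, with log2 changes of -3.14 ± 0.35 in WT and -1.92 ± 0.35 in KO. Its day 4 change against day 0 in WT was close to the threshold (-0.87 ± 0.35, limma adjusted p = 0.0466) and was lost in 15 of 35 alternatives. In 12 of them 1 library was left out (WT day 0 replicates 1 to 3, WT day 1 replicates 2 and 4, KO day 1 replicates 2 to 4, WT day 4 replicates 1 to 3, KO day 4 replicate 1), with a limma adjusted p from 0.0504 to 0.17. In KO that change was -1.87 ± 0.35 (limma adjusted p = 0.000148).

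Socs2 fell at day 1 and partly returned at day 4 in both genotypes. The WT means were 259.7 ± 33.0 (SD, n = 4) at day 0, 90.2 ± 8.0 at day 1 and 145 ± 28.6 at day 4, and the KO means were 243 ± 30.6, 95.4 ± 3.84 and 145 ± 5.3. Within each genotype the libraries of day 0 and day 1 lay apart, with day 4 between them. The log2 change at day 1 was -1.51 ± 0.14 in WT and -1.33 ± 0.14 in KO (limma adjusted p = 3e-09 and 3.16e-08). From day 1 to day 4 it rose by 0.66 ± 0.14 in WT and 0.60 ± 0.14 in KO (limma adjusted p = 0.000371 and 0.000941). Its remaining deficit at day 4 against day 0, -0.85 in WT and -0.73 in KO, turned to 0.09 and 0.06 under quantile normalization.

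Socs1 was low, with 26 to 287 reads a library. WT values were 2.52, 3.16, 7.81 and 8.66 at day 0, 1.35, 1.38, 1.77 and 5.54 at day 1, and 2.9 to 5.95 at day 4. KO values were 2.11, 3.22, 6.6 and 12.2, then 5.36, 9.26, 10.5 and 15.4, then 2.08 to 6.04. No change between days passed the test in either genotype with the settings of the main test. The nearest in KO was the change from day 1 to day 4, -1.07 ± 0.48 (limma adjusted p = 0.0679), which passed in 4 of 35 alternatives: a pseudocount of 5, quantile normalization (-1.56, limma adjusted p = 0.00891), only the groups compared, and without KO day 1 replicate 1 (0.0414). In WT day 1 against day 0 passed without WT day 1 replicate 1 (-1.25, limma adjusted p = 0.0411) and day 4 against day 1 with library weights (0.86, limma adjusted p = 0.0185). At day 1 against day 0 the estimates were -0.90 ± 0.48 in WT (limma adjusted p = 0.12) and 0.81 ± 0.48 in KO (limma adjusted p = 0.18).

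The day 4 libraries differed from the earlier ones in their overall distribution. The median log2 change of all genes was 0.23 (day 0) and 0.22 (day 1) in WT and 0.18 in both KO comparisons, and quantile normalization brought these to between -0.02 and 0.01. For day 1 against day 0 in WT it moved the median from -0.01 to -0.11. Relative to these medians, the day 4 changes against day 0 that were called as falls were between -3.08 (Stat3) and -1.08 (Socs2) in WT and between -2.68 (Stat3) and -0.80 (Il6st) in KO. The changes of Jak1 from day 1 to day 4, -0.64 in WT and -0.94 in KO, became 0.23 and 0.21 under quantile normalization, and those of Stat3, -1.10 and -1.21, became -0.22 and -0.02.

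The differences between genotypes that passed the test were those of day 1. There, 4 of the 10 members passed the test, where 9.2% of all genes did: Jak1, Jak2 and Socs1 were higher in KO (background for higher 7.12%) and Socs3 was lower (2.08%). Of all genes called, 77.4% were higher in KO in limma and 64.4% in DESeq2. At 5 members the KO and WT libraries of day 1 did not overlap, against 26.2% of all genes, at day 0 they overlapped for every member (6.97% of all genes did not), and at day 4 they did not for 1 (7.7%). No member passed at day 0, where 9.75% of all genes did, or at day 4, where 1.05% did, and edgeR and DESeq2 also called 0 on both days. At an unadjusted p under 0.05 there were 2 at day 0 (Il6st and Socs3) and 1 at day 4 (Osmr). The share of all genes called at day 0 rests on the spread shared by the 6 groups. With only the groups compared, 34 genes passed there as higher and 34 as lower, and with library weights 149 and 160.

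**Figure D4:**
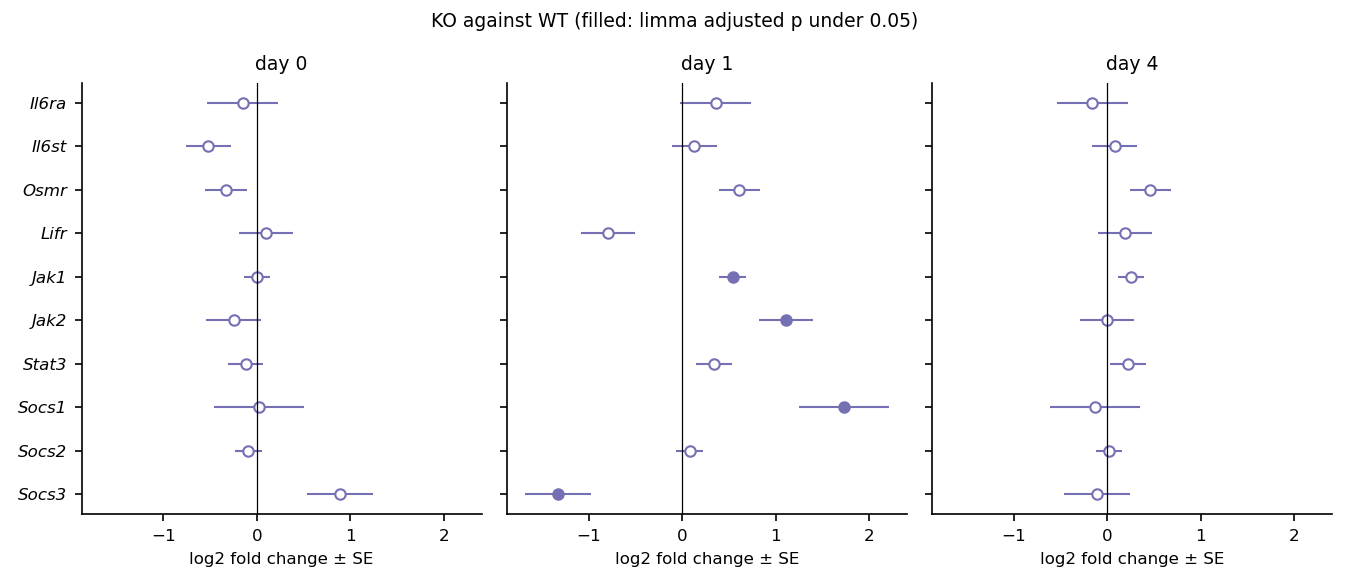
Log2 fold change of KO against WT with its SE (horizontal axis) for each gene at days 0, 1 and 4, from 1 limma model over 24 libraries; filled points passed an adjusted p of 0.05. The 4 filled points are at day 1: Jak1, Jak2 and Socs1 to the right of 0 and Socs3 to the left.

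At day 1 Socs3 had 0.397 times its WT level in KO, a log2 difference of -1.33 ± 0.35 (limma adjusted p = 0.0145), and the groups did not overlap. Jak2 was 2.16-fold higher in KO (1.11 ± 0.29, limma adjusted p = 0.0148) and Jak1 1.46-fold higher (0.54 ± 0.14, limma adjusted p = 0.0137), again with no overlap. Socs1 was 3.32-fold higher (1.73 ± 0.48, limma adjusted p = 0.0216), but the lowest KO library, at 5.36, lay under the highest WT library, at 5.54.

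None of these 4 calls held under every alternative, and leaving out WT day 1 replicate 3 left 1 call (Jak1), while leaving out WT day 1 replicate 4 or KO day 1 replicate 2 left 2. The Socs3 call was lost without WT day 1 replicate 3, its highest library (-1.06, limma adjusted p = 0.0863), or KO day 1 replicate 1, its lowest (-1.14, 0.0691). That of Jak2 was lost without WT day 1 replicate 3 (limma adjusted p = 0.0715) or KO day 1 replicate 2 (0.0686). For Jak1 it was lost without WT day 1 replicate 4 (limma adjusted p = 0.0652), with no mean-variance trend in the fit (0.54, limma adjusted p = 0.0687) and under quantile normalization (0.29, limma adjusted p = 0.32). Socs1 lost its call without any 1 of 5 libraries of day 1 (limma adjusted p from 0.0559 to 0.0915: WT replicates 2, 3 and 4, KO replicates 2 and 4) and in edgeR (adjusted p = 0.0623). The sign was the same in every alternative for these 4 genes.

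The receptor genes Osmr and Lifr also lay apart at day 1 without passing the test. Osmr had 88.0 ± 8.69 in KO and 57.3 ± 4.88 in WT (SD, n = 4), a log2 difference of 0.61 ± 0.22 (limma adjusted p = 0.102). Lifr had 16.7 ± 2.46 and 29.7 ± 5.29, a difference of -0.79 ± 0.29 (limma adjusted p = 0.101). Both passed when only the groups compared entered the fit (limma adjusted p = 0.00439 and 0.0104), which uses the smaller spread of the day 1 libraries. Both also passed with library weights (limma adjusted p = 0.00252 and 0.00101). These settings called far more of the 16985 genes: 2169 higher and 1789 lower with only the groups compared, and 2759 and 2161 with library weights. The main test called 1209 and 353. Lifr also passed in DESeq2 (adjusted p = 0.015) and without KO day 0 replicate 4 (limma adjusted p = 0.043). Stat3 (0.34 ± 0.19, limma adjusted p = 0.368), Il6ra (0.36 ± 0.38, 0.763), Il6st (0.13 ± 0.24, 0.923) and Socs2 (0.08 ± 0.14, 0.904) did not pass under any alternative.

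Before injury the Socs3 difference had the opposite sign, 0.89 ± 0.35 (31.0 ± 8.89 in KO and 17.1 ± 7.95 in WT; limma adjusted p = 0.115). It passed without WT day 0 replicate 3 (1.15, limma adjusted p = 0.0439). The change of the KO-WT difference from day 0 to day 1 was -2.23 ± 0.50 for Socs3 (limma adjusted p = 0.00395), and it was called in all 35 alternatives, with adjusted p between 0.000125 and 0.0221. For Jak2 that change was 1.36 ± 0.41 (limma adjusted p = 0.033), called in 22 of 35 alternatives. Among those in which it was lost, 10 left out 1 library (WT day 0 replicate 1 or 2, KO day 0 replicate 2 or 4, WT day 1 replicate 1, 3 or 4, KO day 1 replicate 2, 3 or 4), with limma adjusted p from 0.0504 to 0.0798, and library weights gave 0.13. These were the 2 members that passed, where 11.6% of all genes did. Osmr (0.93 ± 0.32, limma adjusted p = 0.0573) was called in 7 of 35 alternatives, and Socs1 (1.71 ± 0.68, limma adjusted p = 0.11) in 1.

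No member passed the test of the change from day 0 to day 4 (3.99% of all genes) or from day 1 to day 4 (3.97%), in limma, edgeR or DESeq2. At an unadjusted p under 0.05 there were 1 (Osmr) and 4 (Lifr, Jak2, Socs1 and Socs3). For Socs3 the change from day 1 to day 4 was 1.23 ± 0.50 (limma adjusted p = 0.223). The day 4 means of Jak2 were 20.8 ± 6.59 in KO and 20.5 ± 4.08 in WT (SD, n = 4), and those of Socs3 were 7.84 ± 2.92 and 8.47 ± 2.94. Stat3 was the member whose day 4 groups did not overlap (133 to 149.6 in KO and 101 to 132 in WT), and its difference of 0.22 ± 0.19 did not pass (limma adjusted p = 0.851).

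Other markers differed between the genotypes at day 1 beside these genes, where 7.12% of all genes passed as higher in KO and 2.08% as lower. Of 14 mature myofibre markers 10 were lower in KO, with summed values of 53.3 to 97.6 against 254 to 362 in WT. Of 14 fibro-adipogenic progenitor markers 3 were higher in KO, with sums of 1736 to 2494 against 901 to 1283. This gap was there before injury, with sums of 2230.4 to 2700.1 in KO and 1056 to 1342 in WT at day 0. On that day 3 of these markers were higher and 0 lower, where 9.75% of all genes passed in either direction. Of 11 muscle stem cell markers 3 were higher and 5 lower, with a summed value of 5645 to 7552 across KO libraries and 4761 to 6906 across WT libraries. None of 20 macrophage markers passed at day 1 in limma (2 at an unadjusted p under 0.05, 2 in edgeR and 3 in DESeq2), their sum being 18.1 to 28.4 across KO libraries and 9.56 to 33.6 across WT libraries. None of 4 neutrophil and 10 endothelial markers passed in limma (1 of each at an unadjusted p under 0.05, 0 in edgeR and DESeq2), and 2 of 10 smooth muscle and pericyte markers were higher in KO. Their part in the member results was not tested.

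Genes known as STAT3 targets did not move as one group at day 1. Of 20 tested, 5 were higher in KO and 2 lower, beside 7.12% and 2.08% of all genes, with a median log2 difference of -0.08 beside -0.03 for all genes. The 3 largest differences were those of Pim1, a survival kinase (2.15 ± 0.24, limma adjusted p = 1.07e-06), Cebpb, a leucine-zipper transcription factor (2.02 ± 0.28, limma adjusted p = 1.64e-05), and Bcl6, a transcriptional repressor (1.71 ± 0.21, limma adjusted p = 3.84e-06). Pim1 had 23.7, 25.3, 25.4 and 37.0 in KO and 4.48, 4.79, 5.39 and 7.25 in WT, with no overlap. The pair that was lower, named after their values were seen, were Irf1 (-1.16 ± 0.24, limma adjusted p = 0.00156) and Junb (-0.96 ± 0.22, limma adjusted p = 0.0054).

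Over time the genes of the STAT3 target list that passed went both ways at day 1, and most of those that passed at day 4 were lower. In WT 8 of the 20 rose and 8 fell at day 1, beside 27.7% and 24.9% of all genes, led by Timp1, an inhibitor of matrix proteases (5.15 ± 0.32), Bcl6 (-3.52 ± 0.21) and Cebpb (-2.94 ± 0.28). In KO 6 rose and 8 fell, where 4108 of all 16985 genes tested rose and 21.5% fell. The largest KO changes in the list were those of Timp1 (5.31 ± 0.32), Klf4 (-1.62 ± 0.19) and Il4ra (1.62 ± 0.36). At day 4 against day 0, 13 fell and 2 rose in WT and 12 fell and 4 rose in KO, with median log2 changes of -1.29 and -1.02, where 18.9% and 18.2% of all genes fell. Of all 16985 genes tested, 4370 rose in WT and 3794 in KO. In WT the largest day 4 changes were those of Timp1 (4.71), Cebpd (-3.92) and Birc5 (3.49), and in KO of Timp1 (4.21), Fos (-4.03) and Cebpd (-3.77). At day 0 the list had 2 genes higher in KO, Ccnd1 (0.88) and Klf4 (0.74), and Vegfa lower (-0.53), where 9.75% of all genes passed in either direction.

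Immediate early genes, which respond within minutes to growth signals and to handling of cells, were counted beside Socs3, which is also known to be induced rapidly. Of 22 such genes, 7 were lower in KO at day 1 and 3 higher, beside 2.08% and 7.12% of all genes. The largest differences were those of Fosb (-2.08 ± 0.28, limma adjusted p = 1.08e-05), Egr2 (-1.81 ± 0.49, 0.0168) and Nr4a1 (-1.32 ± 0.30, 0.00479). Summed values were 2673 to 3302 in KO and 3728 to 4767 in WT at day 1, and 3845 to 4605 in KO and 3324 to 3724 in WT at day 0, so the order of the genotypes turned between the days, as it did for Socs3. The change of the KO-WT difference from day 0 to day 1 passed for 13 of the 22, with 11 negative and 2 positive, where 11.6% of all genes passed in either direction. The part of this in the Socs3 result was not tested. Fos, Junb and Klf4 stand on both lists.

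**Figure D5:**
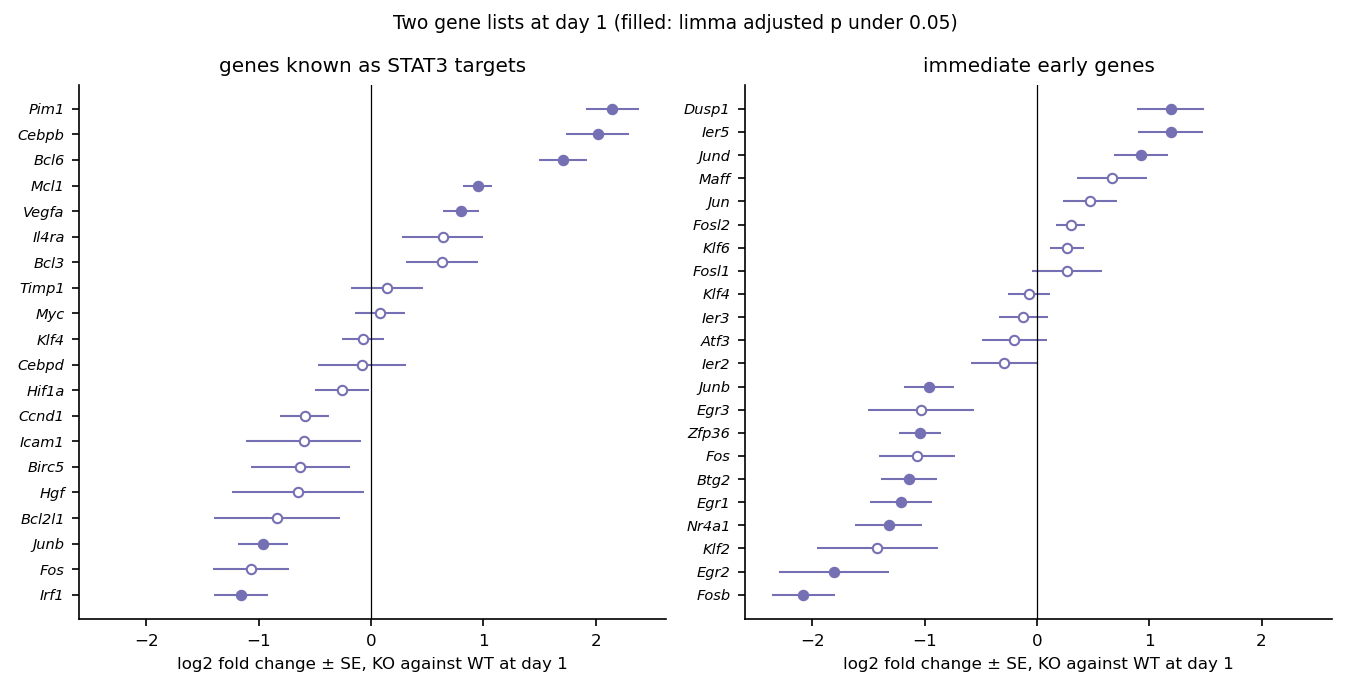
Log2 fold change of KO against WT at day 1 with its SE (horizontal axis) for 20 genes known as STAT3 targets and 22 immediate early genes, sorted by size; filled points passed a limma adjusted p of 0.05. In the left panel 5 filled points lie above 0 and 2 below, and in the right panel 3 above and 7 below.

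By day, 19 of the 22 immediate early genes were lower at day 4 than at day 0 in each genotype, beside 18.9% of all genes in WT and 18.2% in KO, and Ier5 was higher (1.26 in WT and 0.77 in KO). The largest day 4 changes were those of Maff (-3.74), Fosl1 (-3.42) and Ier3 (-2.90) in WT and of Fos (-4.03), Fosl1 (-3.65) and Btg2 (-3.34) in KO. At day 1 against day 0 in WT 6 were higher and 5 lower, close to the 27.7% and 24.9% of all genes. The largest of these changes were those of Maff (-2.25), Fosl2 (-2.05) and Junb (1.82). At day 1 in KO 13 were already lower, beside 21.5% of all genes, and 3 higher, beside 4108 of all 16985 genes tested. The largest of these KO changes were those of Egr3 (-2.61), Fosb (-2.14) and Fosl2 (-1.75).

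Ligands of the family were analysed for 8 of the 10 genes listed. None passed between genotypes on any day in limma, edgeR or DESeq2 (1 at day 0, 2 at day 1 and 0 at day 4 at an unadjusted limma p under 0.05), and the nearest was Clcf1, a cardiotrophin-like cytokine, at day 1 (0.58 ± 0.19, limma adjusted p = 0.059). At day 1 in WT Cntf (-1.81), Ctf2 (-1.59) and Clcf1 (-1.14) fell. In KO Il6 (-1.45, limma adjusted p = 0.044) and Lif (-1.36) fell and Il11 (1.47, limma adjusted p = 0.0391) rose. These calls do not separate the genotypes: 0 of the 8 ligands passed the test of the change of the KO-WT difference from day 0 to day 1. Cntf in KO (-1.53, limma adjusted p = 0.0572) and Lif in WT (-0.97, limma adjusted p = 0.0751) were near the threshold. At day 4 in both genotypes Clcf1 (-1.67 in WT and -1.26 in KO) and Lif (-1.18 and -2.03) fell and Osm, which encodes oncostatin M and had at most 3 reads in each day 0 library, rose (1.65 and 1.24).

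Of the other receptor and receptor-shedding genes, values are given for a part of the list only, and no count over it. Il11ra1, the interleukin-11 chain, rose at day 1 in WT (1.28 ± 0.31, limma adjusted p = 0.00119) and was lower at day 4 than at day 0 in WT (-2.66) and KO (-2.51). Adam17, a protease known to release the interleukin-6 receptor from the cell surface, rose by day 4 in KO (0.86 ± 0.22, limma adjusted p = 0.0029), and its log2 change in WT was 0.28 ± 0.22.

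The same holds for the other JAK and STAT genes. Stat2 was lower in KO at day 0 (-0.98 ± 0.31, limma adjusted p = 0.0432), where 9.75% of all genes passed in either direction. That call, like the others of day 0, rests on the spread shared by the 6 groups. Tyk2, a kinase of the JAK family, rose by day 4 (3.64 ± 0.46 in WT and 2.72 ± 0.46 in KO), against the fall of Jak1 and Jak2. Stat5a fell by day 4 in both genotypes (-1.99 and -2.29).

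Of 13 other inhibitors, 2 were higher in KO at day 1 and none lower, beside 7.12% and 2.08% of all genes. They were Ptpn1, a phosphatase known to act on JAKs (1.21 ± 0.19, limma adjusted p = 0.000131), and Pias2, a SUMO ligase (1.16 ± 0.20, limma adjusted p = 0.000269). Ptpn1 had 159, 162, 172 and 197 in KO and 69.5, 70.5, 72.5 and 83.8 in WT, with no overlap. Socs4 was higher in KO at day 0 (0.98), where 9.75% of all genes passed in either direction. At day 4 against day 0 the largest changes were those of Pias1 (-3.14 in WT and -3.18 in KO), Ptpn2 (-2.11 and -3.00) and Cish (-1.72 and -2.68). Pias1 had also fallen at day 1 in both genotypes, with log2 changes of -1.71 ± 0.19 in WT and -1.69 ± 0.19 in KO. At day 4 no gene of these 6 lists passed between genotypes in limma or edgeR. DESeq2 called Bcl6, Cebpb and Maff there, and Il11ra1, 1 other inhibitor, 3 STAT3 targets and 2 immediate early genes had an unadjusted limma p under 0.05.

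Likeness of pattern was measured as the root-mean-square difference of log2 profiles over the 24 libraries, each gene centred on its own mean, among 8380 genes with a mean value of at least 8. For Stat3 the nearest genes were Slc38a2 (0.288) and Atl2 (0.289), where Stat3 itself varied by 1.13 about its mean. For Osmr they were Pdcd10 (0.279) and Zhx3 (0.342), and for Lifr Tiparp (0.37) and Appl2 (0.415). Jak1 was nearest to Tor1aip1 (0.233) and Csnk1a1 (0.244), and Jak2 to Klf12 (0.393) and Sgip1 (0.396). Socs2 was nearest to Ranbp2 (0.208) and Nemf (0.22), and Il6st to Usp15 (0.292) and Eif3a (0.328). Distances of over 0.5 were left for 3 members: Socs3, nearest to Epdr1 (0.597) and Cetn3 (0.598) with a variation of 1.21, Socs1, nearest to Ppp1cc (0.566) and Eif3f (0.576) with 0.763, and Il6ra, nearest to Tcf12 (0.501) and Sfswap (0.509) with 0.96.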

How the data were processed

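RNA of primary muscle stem cells was made into 24 libraries with SMART-Seq v4, per the labels' protocols. FastQC, STAR, RSEM, limma and the genome build mm39 are named, with no version, per the submitters' processing notes; whether strand was used is not given in the sources used here. For 17111 genes the authors deposited a normalised signal on a linear scale. Every value in it was a whole read count plus 0.5 divided by a library factor (100% of values whole within 0.02), and these recovered counts gave the depth, 11.58 to 22.47 M reads.

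The main test was limma 3.58.1 (R 4.3.3) on the log2 of the deposited value + 1, for the genes that reached 1 in 4 or more libraries. One model had 6 group means over 24 libraries and a mean-variance trend, two-sided, with Benjamini-Hochberg adjustment over 16985 genes within each of the 12 contrasts and a threshold of 0.05. The fit was tested on simulated data. All 10 members were named in every comparison, as were up to 3 genes per list and comparison, those passing with the largest change, and the 2 genes nearest in pattern; the members and gene lists were chosen with earlier results of these data known. Cell markers and lists were matched by symbol, the T and NK cell list was not analysed here, and some listed genes are not reported here. Alternatives were other filters (none, or 5 reached in 8 or more libraries), pseudocounts of 0.5 and 5, quantile normalization, no trend, only the groups compared, a replicate block, library weights, DESeq2 1.42.0 and edgeR 4.0.16 run on those read counts, and leaving out each library. No replicate libraries agreed within sampling noise (chi-square per gene at least 14.4). In WT this value was 75.8 to 121.9 at day 0 and 15.24 to 23.36 at day 4. In KO it was 84.84 to 107.41 and 33.09 to 58.74. Floors are the value of 3 reads and cover counting error only. The Socs3 promoter is from RefSeq on GRCm38.p6, not the files' build, as are the promoter windows searched for the motif. Merged exon lengths for the levels per kilobase and the second Socs3 start are from GENCODE M21 on that build, and no other coordinate was used.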

Additional observations from a re-analysis of the deposited data

Results flagged for a closer look

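In 5 of the 60 combinations of gene and group, 1 library stood apart from the other 3 by more than Dixon's critical value for 4 samples, which chance does for about 1 in 20 groups. Il6ra reached 3.04 in 1 WT library at day 0, where the other 3 held at most 0.474. Il6st reached 120.1 in 1 WT library at day 1, with the other 3 between 82.7 and 88.5. Socs1 reached 5.54 in 1 WT library at day 1, above the 1.35 to 1.77 of the rest, and this is the library that overlapped the KO range. Stat3 was 101 in 1 WT library at day 4, below 127 to 132, and Socs2 was 198 in 1 KO library at day 0, below 255 to 264.

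The KO-WT difference changed from day 0 to day 1 for Socs3 (-2.23 on the log2 scale, limma adjusted p = 0.00395) and for Jak2 (1.36, limma adjusted p = 0.033), as tested in the model over all libraries.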

How the results depend on the processing

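Across 11 settings and 24 libraries left out in turn, 4074 values for single genes kept their side of the threshold. Of the rest, 72 lost a call, 38 gained one and 4 called values reversed. Values that were not called could change sign and still be among the 4074. All 4 reversals came with quantile normalization: Socs2 at day 4 against day 0 (0.087 in WT and 0.063 in KO) and Jak1 at day 4 against day 1 (0.228 in WT and 0.214 in KO); the cause was not tested. The number of members whose KO-WT difference changed from day 0 to day 1 went from 2 to 1 with quantile normalization and to 1 with library weights, and to 3 with the stricter filter or a pseudocount of 5 (Osmr added) and in DESeq2 (Lifr added). From day 1 to day 4 it went from 0 to 2 with library weights and to 2 with only the groups compared; the cause was not tested.

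Leaving out 1 library gave 0 to 1 members for KO against WT at day 0, 1 to 5 at day 1 and 0 to 0 at day 4. It gave 7 to 8, 8 to 9 and 7 to 8 in WT (day 1 against 0, 4 against 0, 4 against 1), and 4 to 5, 8 to 9 and 6 to 7 in KO. For the change of the difference it gave 1 to 3 (day 0 to 1), 0 to 0 (day 0 to 4) and 0 to 0 (day 1 to 4).

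The labels give the groups the same replicate numbers. Same-numbered libraries showed little common deviation: r was over 0.1 in 1 of 60 pairs (median 0.00364, highest 0.27). The numbers were treated as names only, and these values cannot show that such libraries share nothing else. With the replicate block the number of members called was 0, 4 and 0 for KO against WT by day, 8, 9 and 8 in WT, 5, 8 and 6 in KO, and 2, 0 and 0 for the changes of the difference; the call it lost was that of Il6st in KO at day 4.

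With 11.58 M reads or more, precision was limited mainly for Il6ra and Socs1, at 0 to 115 and 26 to 287 reads a library. The stricter filter left out Il6ra.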
